A study of Homo sapiens with 4 samples.

Results

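The AP-1 and EGR immediate early genes described here are 10 genes: FOS, FOSB, FOSL1 and FOSL2 of the FOS family, JUN, JUNB and JUND of the JUN family, and EGR1, EGR3 and IER2. They were taken by gene symbol, for a group proposed with earlier results of these data known, from a table of 60671 genes, of which 16309 were expressed highly enough to test. All 10 were among those tested. RNA was sequenced from SK-N-BE(2), an established human neuroblastoma line with MYCN amplification, to ask how transcript levels differ when METTL14, a subunit of the enzyme that methylates adenosine in RNA at the N6 position (m6A), is depleted. The shNC group held 2 libraries of cells with a control hairpin, and the shMETTL14 group held 2 libraries of cells with a hairpin against METTL14. According to the methods of the study, hairpins were delivered in the pLKO.1 lentiviral vector. Which of its METTL14 hairpins the sequenced cells carried, how long after infection they were harvested and whether the medium was changed before harvest are not given in the sources used here. Nothing says that the libraries of a group came from separate cultures, so the p-values measure the spread between these libraries, which may be technical.

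Immediate early genes are transcribed within minutes of a growth factor, membrane depolarization or stress, without the need for new protein synthesis. The FOS and JUN proteins pair through leucine zippers to form the transcription factor AP-1. FOS proteins need a JUN partner to bind DNA, whereas JUN proteins can also pair with each other. EGR1 and EGR3 are zinc finger transcription factors that bind GC-rich sites, and IER2 is a small nuclear protein induced together with them. Many of their messenger RNAs are short lived. In neuronal and neuroendocrine cells this group is widely used as a readout of recent ERK, calcium and cAMP signaling.

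The region just before the transcription start is one place where signal-dependent factors of these genes bind, so the promoters of 4 members are shown. These are the pair with the largest decreases (FOS and IER2), the called member of the JUN family with an increase (JUND) and the most abundant member (EGR1). The bases are from RefSeq on GRCh38.p14, 5′ to 3′ on the strand of the gene, and each run ends at or before the start of the gene in GENCODE 29. Capitals mark copies of TGACG on either strand, which is one side of the cAMP response element (CRE), the full CRE TGACGTCA, which holds TGACG on both strands, and, in EGR1, the CArG boxes to which serum response factor binds. The FOS run is chr14:75278578-75278773 (+), the IER2 run chr19:13150161-13150410 (+), the JUND run chr19:18281623-18281872 (-) and the EGR1 run chr5:138465229-138465478 (+).
FOS: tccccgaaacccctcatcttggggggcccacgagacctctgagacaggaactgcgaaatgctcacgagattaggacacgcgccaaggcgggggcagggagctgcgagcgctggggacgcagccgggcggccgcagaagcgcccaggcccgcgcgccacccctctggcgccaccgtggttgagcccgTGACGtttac
IER2: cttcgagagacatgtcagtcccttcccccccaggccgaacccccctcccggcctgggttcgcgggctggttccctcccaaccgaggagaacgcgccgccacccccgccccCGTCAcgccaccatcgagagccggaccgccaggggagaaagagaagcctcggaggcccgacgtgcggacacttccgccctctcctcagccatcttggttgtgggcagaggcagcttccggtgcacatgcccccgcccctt
JUND: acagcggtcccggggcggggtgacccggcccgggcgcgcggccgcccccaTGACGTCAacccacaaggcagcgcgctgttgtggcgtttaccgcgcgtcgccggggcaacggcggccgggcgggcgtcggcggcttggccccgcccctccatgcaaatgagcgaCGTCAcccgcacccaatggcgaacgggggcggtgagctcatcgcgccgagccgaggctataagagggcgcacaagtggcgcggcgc
EGR1: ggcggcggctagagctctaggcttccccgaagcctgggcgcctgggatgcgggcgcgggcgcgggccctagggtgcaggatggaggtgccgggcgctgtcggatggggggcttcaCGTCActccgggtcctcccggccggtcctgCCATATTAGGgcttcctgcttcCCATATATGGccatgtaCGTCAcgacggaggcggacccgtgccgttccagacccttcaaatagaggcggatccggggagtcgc

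Promoters were in the RefSeq table for 8 of the 10 members; FOSL1 and EGR3 were not matched. Within the 250 bases before the RefSeq start, TGACG was present on either strand in 8 of these 8. It was present in 21.7% of 27305 promoters of the same length. In JUN and FOSL2 these 250 bases lie inside the gene as GENCODE annotates it, with 0 bases before the GENCODE start. Their copies of TGACG are thus in annotated gene sequence. The full CRE TGACGTCA was found in JUND, and in 1.77% of all promoters. EGR1 held 2 CArG boxes, a motif present in 1.14% of all promoters. Bases farther upstream were not searched, so a member without a motif in this window may carry it there. The AP-1 site TGACTCA (4.16% of all promoters) and the EGR sites GCGGGGGCG (4.68%) and GCGTGGGCG (0.71%) were in no member's window. The ETS site CCGGAA was in FOSB and IER2 and in 14.8% of all promoters. A match of letters is a description of the window and not a bound site. The motifs were chosen after these sequences had been seen. Members that rose, fell or were not called all carried TGACG, those not called (JUN and FOSL2) in the windows inside the gene.

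The depth was even, at 18925786 to 19886214 counts in genes for each library. METTL14 itself had 753 and 754 counts with the control hairpin and 303 and 321 with the METTL14 hairpin, a fall from 38.6 ± 1.13 to 16.1 ± 0.851 CPM (counts scaled to a common library size; SD, n = 2) (log2 fold change -1.26, SE 0.0832, edgeR adjusted p = 3.6e-11). Libraries of a group lay close together, with a biological coefficient of variation of 3.45%. Of all tested genes, 52.5% were called at an edgeR adjusted p under 0.05, 27.2% as higher and 25.3% as lower in shMETTL14 cells. The noradrenergic markers of neuroblastoma, among them HAND2, GATA3, TH and DBH, were all expressed at levels that could be tested. In bulk RNA, fewer cells with a transcript and less of it per cell cannot be told apart.

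Of the 10 members, 8 were called, and most of the calls were decreases. FOS, FOSB, JUNB, EGR1, EGR3 and IER2 were lower in shMETTL14 cells, FOSL1 and JUND were higher, and FOSL2 and JUN did not pass the test. Beside these counts of 8, 6 and 2 members, the background over all tested genes was 52.5% called, 25.3% lower and 27.2% higher. That background includes many weakly expressed genes, in which a change is harder to call, whereas the members other than FOSL1 were well counted. The share called among genes with like counts was not computed, here or for the lists below, so a higher share is not read as an excess. The same 8 members were called with DESeq2, where 36.9% of all tested genes were. FOSL1 was the sole member with a change of at least 2-fold, a size reached with a call by 8.79% of all tested genes. In all 10 members the shMETTL14 libraries lay on 1 side of both shNC libraries, as they did in 75.5% of all tested genes. The median log2 fold change of the members was -0.23, where that of all tested genes was -0.00095. The changes of most members were thus small in absolute size, and FOS, IER2, FOSL1 and JUND carried the largest of them.

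**Figure D1:**
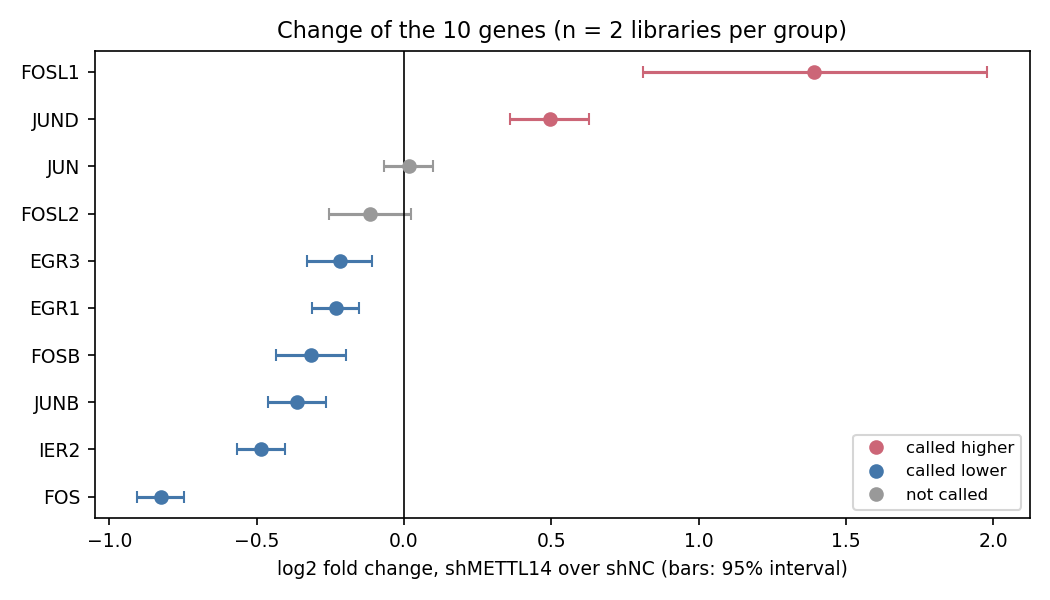
Log2 fold change of each of the 10 genes, shMETTL14 over shNC (horizontal axis), with 95% intervals from edgeR as bars and n = 2 libraries per group. FOS lies farthest to the left at -0.83 and FOSL1 farthest to the right at 1.39 with the widest interval, and the intervals of JUN and FOSL2 cross 0.

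The levels of the members spanned a wide range. Set per length as RPKM (CPM divided by the kilobases of annotated exon of the gene), EGR1 was the most abundant in shNC cells, with 340.0 and 317.6, and ranked 69 among 12809 coding genes. JUNB followed with 142.7 and 159.5 RPKM, FOS with 126.5 in each library and IER2 with 116.2 and 119.8. JUN had 61.6 and 61.1 RPKM and JUND 45.2 and 36.7, so that JUN transcripts of the 3 kinds were all plentiful. EGR3 (15.5 and 15.6 RPKM), FOSB (12.2 and 11.4) and FOSL2 (5.77 and 5.91) were of middle rank. FOSL1 was close to the limit of testing, at 0.691 and 0.581 RPKM and rank 11112. In neither group did the libraries of genes next to each other in this order overlap. In shMETTL14 cells the order differed in 1 place, where FOS (71.3 and 71.5 RPKM) came to lie below IER2 (84.8 and 83.8 RPKM). The places of FOS next to JUNB and IER2 depend on the length used. Annotated exons cover 3238 bases in FOS, 1820 in JUNB and 3072 in IER2. Their transcripts with the longest coding sequence have 2158, 1820 and 2934 bases, and the order by these lengths was not computed.

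**Figure D2:**
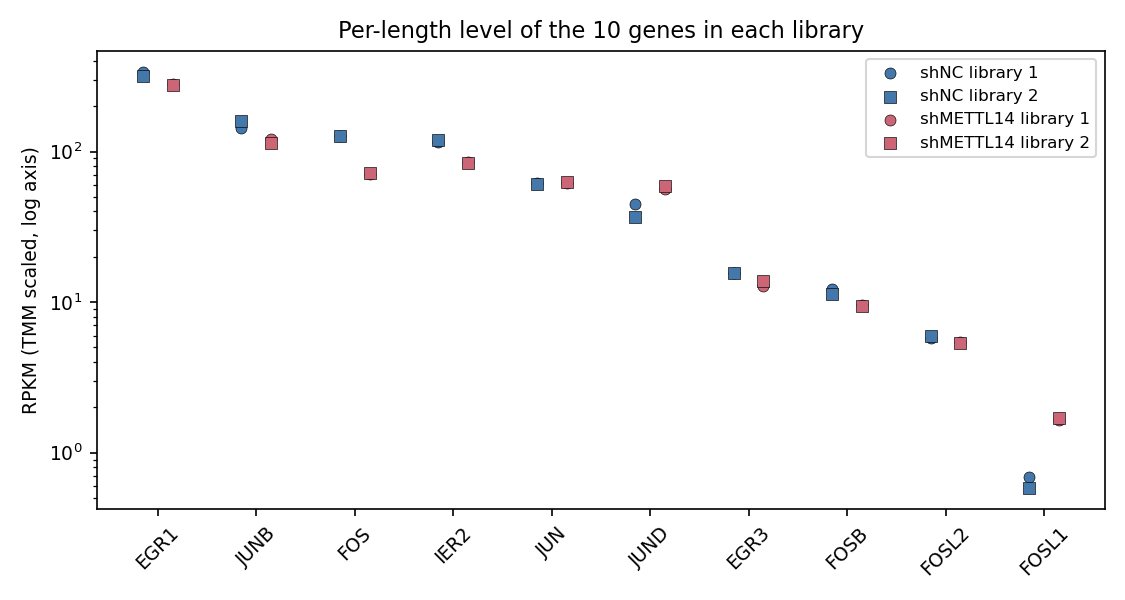
RPKM of each gene in each of the 4 libraries (log axis), with genes ordered by their mean in shNC cells, blue for shNC and red for shMETTL14, circles for library 1 and squares for library 2. The shNC squares of JUND and JUNB stand apart from the circles, whereas the 4 symbols of JUN nearly coincide.

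In the FOS family, the dominant member fell. FOS (ENSG00000170345), the prototype partner of JUN in AP-1, is a gene of 4 exons at chr14:75278774-75282230 (GENCODE 29, GRCh38) and overlaps no other annotated gene. It had 8164 and 7844 counts in the shNC libraries and 4520 and 4457 in the shMETTL14 libraries. After scaling for library size this was 409.6 CPM in each shNC library against 230.8 and 231.6 CPM, so the shMETTL14 libraries retained 56.4% of the control level. The log2 fold change was -0.83 (SE 0.0386, adjusted p = 1.4e-13), with a 95% interval from -0.91 to -0.75. The gap between groups was far wider than that within either group, and 9.23% of all tested genes had a lower log2 fold change.

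FOSB (ENSG00000125740), which also pairs with JUN proteins and is known for its stable short form in neurons, showed a smaller decrease. Its counts were 1352 and 1209 in shNC and 1044 and 1000 in shMETTL14 libraries, or 67.8 and 63.1 against 53.3 and 52.0 CPM. This was a fall of 19.6% (log2 fold change -0.32, SE 0.0578, adjusted p = 8.96e-05). FOSB lies at chr19:45467995-45475179 and overlaps ERCC1 on the other strand, but the exons of the 2 genes share 0 bases, and ERCC1 was not called (log2 fold change 0.13, adjusted p = 0.12).

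FOSL1 (ENSG00000175592) encodes FRA-1, an AP-1 subunit linked with migratory and mesenchymal states in many tumors, and it moved against FOS. It had 26 and 21 counts in shNC and 61 and 62 in shMETTL14 libraries, or 1.304 and 1.097 against 3.115 and 3.221 CPM. The groups were well separated for so rare a transcript, with a 2.63-fold higher level in shMETTL14 cells. The log2 fold change was 1.39 (SE 0.281, adjusted p = 0.000256), and the 95% interval, from 0.81 to 1.98, was the widest of the 10. Of all tested genes, 1.32% had a higher value. FOSL1 is at chr11:65892049-65900573, with 4 exons and no overlapping gene.

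FOSL2 (ENSG00000075426), which encodes FRA-2, did not pass the test. It had 823 and 810 counts in shNC and 758 and 741 in shMETTL14 libraries, or 41.3 and 42.3 against 38.7 and 38.5 CPM. The log2 fold change was -0.11 (SE 0.0671, adjusted p = 0.16), with an interval from -0.25 to 0.03, so a decrease of the size seen in FOSB lay outside it and a small one did not. Under upper quartile scaling FOSL2 was called, at -0.18. The gene, at chr2:28392448-28417312, overlaps 2 noncoding genes.

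Summed over its 4 members, the FOS family had 145.2 and 144.4 RPKM in the shNC libraries and 87.95 and 87.96 RPKM in the shMETTL14 libraries, a fall of 39.2%. An exact two-sided permutation test of 2 libraries against 2 gave p = 0.333, the smallest value this design allows. The makeup of the sum also differed. FOS made up 87.1% and 87.6% of it in shNC and 81.1% and 81.3% in shMETTL14 libraries. The share of FOSB was 8.41% and 7.88% against 10.9% and 10.6%, although its own level fell. FOSL2 made up 3.97% and 4.09% against 6.15% and 6.12%, and FOSL1 0.476% and 0.403% against 1.88% and 1.94%. FOS thus remained by far the main transcript of its family in every library.

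In the JUN family, 1 member fell, 1 rose and 1 was not called. JUN (ENSG00000177606), the founding subunit of AP-1 and a target of the JNK kinases, had 4349 and 4144 counts in shNC and 4277 and 4251 in shMETTL14 libraries. In CPM this was 218.2 and 216.4 against 218.4 and 220.9, which left the groups next to each other with hardly a gap. The log2 fold change was 0.02 (SE 0.0397, adjusted p = 0.768), with a 95% interval from -0.067 to 0.098. The interval excludes the decreases of FOS, IER2 and JUNB in size. The sign of this small value was negative under upper quartile scaling, library size alone and a filter of 10 counts in every library. JUN is a gene of 1 exon at chr1:58780788-58784327.

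JUNB (ENSG00000171223), often a weaker activator than JUN and an antagonist of it at some genes, was the most abundant of the 3. Its counts were 5178 and 5560 in shNC against 4296 and 4011 in shMETTL14 libraries, or 259.8 and 290.4 against 219.4 and 208.4 CPM. This was a fall of 22.2% (log2 fold change -0.36, SE 0.0478, adjusted p = 1.41e-06). The shNC libraries differed by 0.16 on the log2 scale, a gap exceeded by 4.77% of the 4043 genes that had 1000 or more counts throughout, and the drop between groups was larger than that gap. JUNB, a gene of 1 exon at chr19:12791496-12793315, shares 259 exon bases with HOOK2 on the other strand. HOOK2 had 448 and 384 counts in shNC and 315 and 304 in shMETTL14 libraries (log2 fold change -0.42, adjusted p = 0.000858). Its counts were about an order of magnitude below those of JUNB, and how reads of the shared bases were assigned is not known, since the strand setting is not given in the sources used here.

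JUND (ENSG00000130522), which is expressed more constantly than the other JUN genes and is less dependent on stimulation, rose. It had 1677 and 1309 counts in shNC and 2073 and 2103 in shMETTL14 libraries, or 84.1 and 68.4 against 105.9 and 109.3 CPM. The increase was 41.1% (log2 fold change 0.50, SE 0.0646, adjusted p = 1.23e-06), with an interval from 0.36 to 0.63 on that scale. DESeq2 gave a log2 fold change of 0.49 with a wider SE, 0.145 (adjusted p = 0.00288), so the edgeR interval may be too narrow. The shNC libraries stood apart from each other by 0.30 on the log2 scale, where the median gap of those 4043 genes was 0.05 and 7 of them had a wider one. JUND was high and JUNB low in shNC library 1, relative to shNC library 2. Without shNC library 1 the log2 fold change of JUND was 0.65, and without shNC library 2 it was 0.36, both called. The gene has 1 exon, at chr19:18279760-18281622.

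The sum of the JUN family was 249.5 and 257.4 RPKM in shNC and 239.1 and 235.6 RPKM in shMETTL14 libraries, a difference of -6.36% (exact permutation p = 0.333, the smallest possible). The groups did not overlap, but the difference was small beside that of the FOS family. On the log2 scale it was -0.0948, and -0.162 under upper quartile scaling, where the FOS family had -0.719 and -0.787. JUNB made up 57.2% and 62.0% of the sum in shNC and 50.4% and 48.6% in shMETTL14 libraries. JUND made up 18.1% and 14.3% against 23.8% and 24.9%, and JUN 24.7% and 23.8% against 25.8% and 26.5%. In shNC cells JUN exceeded JUND in each library by a wider margin than in shMETTL14 cells, where the shares of both nearly met. The ratio of summed FOS family to summed JUN family RPKM was 0.582 and 0.561 in shNC and 0.368 and 0.373 in shMETTL14 libraries. On this measure the JUN sum exceeded the FOS sum in every library, and by more in the shMETTL14 libraries. The size of the ratio depends on the lengths used. Summed as CPM without length, the FOS family had 516.2 to 520.0 in shNC and 325.3 to 326.0 in shMETTL14 libraries. The JUN family had 562.1 to 575.1 and 538.6 to 543.7 CPM.

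**Figure D3:**
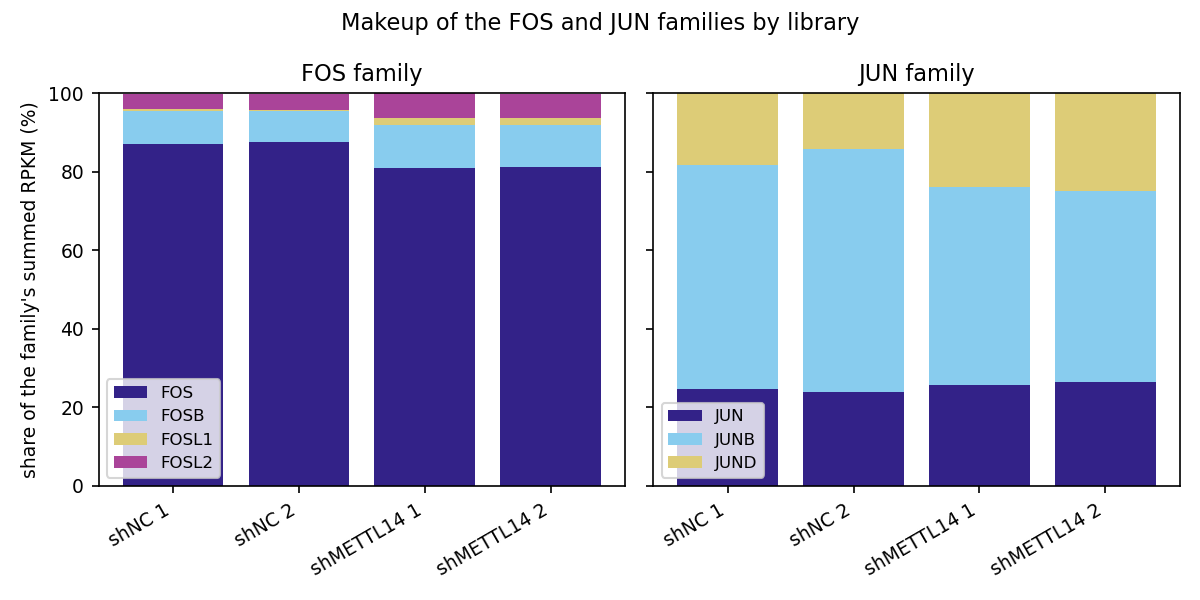
Makeup of the FOS family (left) and of the JUN family (right) in each of the 4 libraries, as stacked shares of the summed RPKM of the family (vertical axis, percent). The FOS segment is shorter in both shMETTL14 libraries than in both shNC libraries, and the JUND segment is taller.

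Both EGR members and IER2 fell. EGR1 (ENSG00000120738), a zinc finger factor that answers growth factors and depolarization, had 21265 and 19086 counts in shNC and 17336 and 16805 in shMETTL14 libraries, or 1067 and 996.7 against 885.4 and 873.2 CPM. The fall was 14.8% (log2 fold change -0.23, SE 0.0386, adjusted p = 3.0e-05). The highest shMETTL14 library lay below the lowest shNC library, but the change was less than the median absolute log2 fold change of all tested genes, 0.30. EGR1 has 2 exons, at chr5:138465490-138469315.

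EGR3 (ENSG00000179388), a related factor with roles in muscle spindles and neurons, had 1504 and 1448 counts in shNC and 1224 and 1296 in shMETTL14 libraries. In CPM this was 75.5 and 75.6 against 62.5 and 67.3, a fall of 14.0%. The log2 fold change of -0.22 (SE 0.0534, adjusted p = 0.00158) was of the same size as that of EGR1. It rested on shMETTL14 library 1: without that library, the log2 fold change was -0.16 and the adjusted p 0.057, so the call was lost. EGR3 overlaps 1 noncoding gene.

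IER2 (ENSG00000160888) had the next largest decrease after FOS. Its counts were 7116 and 7047 in shNC and 5102 and 4953 in shMETTL14 libraries, or 357 and 368 against 260.6 and 257.4 CPM. The fall was 28.6% (log2 fold change -0.49, SE 0.0392, adjusted p = 9.4e-10), and 18.1% of all tested genes had a lower value. The libraries of each group were close to each other and the gap between groups was many times wider. IER2 lies at chr19:13150415-13154908, and its transcript with the longest coding sequence, of 2934 bases, has 1 exon and does not fill this span. The gene overlaps the antisense gene AC011446.2, whose reads cannot be told from those of IER2 without strand information.

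The longest coding transcripts of the members were also searched for GGACT, a frequent form of the sequence in which m6A is placed, and for ATTTA after the stop codon, the core of AU-rich elements that speed decay. The m6A mark itself was not analysed here. IER2 had 7 copies of GGACT, or 2.39 per kb, a density above that of 94.9% of 12800 tested coding transcripts, whose median was 0.95 per kb. EGR1 and FOSL1 had 0 copies, FOS 3, FOSB 5, FOSL2 7, JUN 5, JUNB 1, JUND 2 and EGR3 3. FOS had the densest ATTTA, with 5 copies or 6.2 per kb after the stop codon, above 94.4% of 11617 transcripts with a median of 1.61 per kb. JUNB had 2 copies and IER2 had 0. FOS and IER2, the pair of members with the largest decreases, differed in ATTTA, which 69.7% of these transcripts carried after the stop codon. Members with and without GGACT were found among those that fell and among those that rose. Any part of these words in the changes was not tested.

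The other genes of these pathways were taken from lists made from general knowledge, with earlier results of these data known. Among 12 other bZIP partners that AP-1 subunits can pair with, 9 could be tested, with 3 higher, 4 lower and a median log2 fold change of -0.21. ATF3, a stress-induced repressor, fell from 815 and 828 counts to 606 and 633, with a log2 fold change of -0.40 (adjusted p = 8.18e-05). ATF7 (-0.39) and ATF2 (-0.21) were also lower, whereas MAFF (0.89) and MAFG (0.46), small MAF proteins without an activation domain, were higher. BATF3 was called higher at 1.22 on 14 and 11 against 24 and 34 counts (adjusted p = 0.0149), a call that was lost with DESeq2 (adjusted p = 0.0973) and without shNC library 2 or shMETTL14 library 2. BATF, BATF2 and MAF were too weakly expressed to test. Of the genes tested in this list 77.8% were called, beside 52.5% of all genes, and like the 10 members it held changes in both directions.

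Of the 5 other genes of the EGR family and its corepressors, 2 were higher and 2 lower, or 80.0% called beside 52.5% of all tested genes. EGR2 fell like EGR1 and EGR3 but by more, from 392 and 373 counts to 249 and 228 (log2 fold change -0.67, SE 0.0993, adjusted p = 6.45e-06). EGR4 was not called, with 77 and 67 against 66 and 90 counts and overlapping groups (adjusted p = 0.644). WT1, which has zinc fingers related to those of the EGR proteins and is 1 of the 2 higher genes, had 14 and 7 counts in shNC and 76 and 72 in shMETTL14 libraries. It passed the filter on low counts through the shMETTL14 libraries and was not tested where 10 counts were required in every library, so its values are a description. NAB2, which binds EGR proteins and represses their activity, rose (0.51, adjusted p = 1.08e-05), and its relative NAB1 fell (-0.29, adjusted p = 0.000103).

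Other immediate early genes did not follow FOS as a group. Of 31, 26 could be tested, with 14 higher, 7 lower and a median log2 fold change of 0.19, opposite in sign to the median of the 10 members. This was 80.8% called, beside 52.5% of all tested genes (27.2% higher and 25.3% lower). PLK2, a polo-like kinase induced by serum and synaptic activity, rose from 118 and 104 counts to 928 and 906 (log2 fold change 3.06, SE 0.0966, adjusted p = 2.91e-16). SGK1, a kinase induced by serum and glucocorticoids, rose from 78 and 85 to 521 and 538 counts, at 2.71 (adjusted p = 3.55e-14). These increases were far larger than any change among the 10 members.

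IER3, an early response gene that affects survival, rose at 1.63 (adjusted p = 2.31e-14), and NR4A2, an orphan nuclear receptor of dopaminergic neurons, at 1.37 (adjusted p = 7.43e-12). The genes that fell with FOS and IER2 included BTG2 (-0.68), an antiproliferative gene, TRIB1 (-0.63), a pseudokinase, and GEM (-0.58), a small GTPase. DUSP2, a phosphatase of MAP kinases, had a log2 fold change of -1.12 on 37 and 29 against 17 and 13 counts (adjusted p = 0.0154), a call lost with DESeq2 (adjusted p = 0.0962) and without shNC library 1 or shMETTL14 library 2. KLF4, MYC, CCN2, SIK1 and PTGS2 were too weakly expressed to test.

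**Figure D4:**
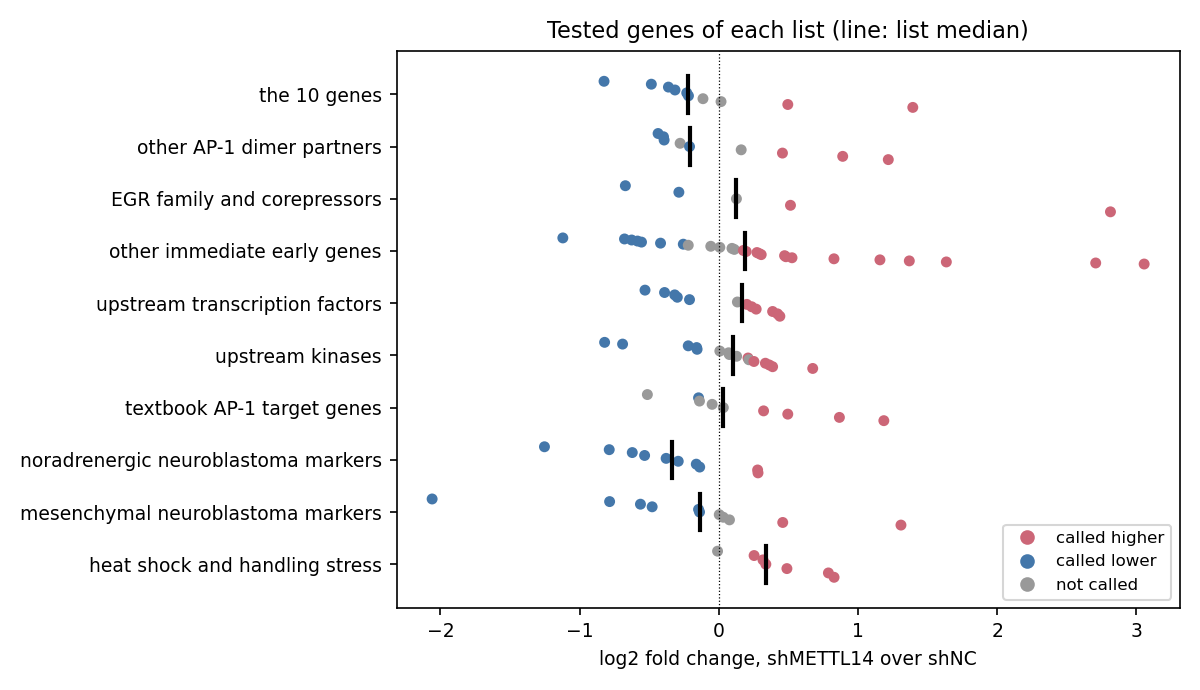
Log2 fold change, shMETTL14 over shNC, of each tested gene in the 10 members and in 9 lists of related genes (1 point per gene, n = 2 libraries per group), with the list median as a black line and color for the edgeR call. The median of the 10 genes lies below 0 at -0.23 and that of the other immediate early genes above it at 0.19, and both rows hold calls in each direction.

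The transcription factors and kinases that act on these promoters changed modestly and in both directions. Of 14 factors, 12 could be tested, with 6 higher, 5 lower and a median of 0.17. The share called was 91.7%, beside 52.5% of all tested genes, and with DESeq2 8 factors were called, where 36.9% of all genes were. SRF, which binds the CArG boxes of EGR1 and other early genes, was higher at 0.27 (adjusted p = 0.00188), as were its partners MRTFA (0.44), ELK1 (0.42) and ELK3 (0.39). The partners ELK4 (-0.32) and MRTFB (-0.30) were lower. CREB1, which binds the CRE, fell from 1863 and 2018 counts to 1505 and 1439, at -0.39 (adjusted p = 3.4e-06), and MEF2A fell at -0.53. MYOCD and MEF2C were not tested.

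Of 16 kinases of the ERK, JNK and p38 pathways, all were tested, with 6 higher, 5 lower and a median of 0.10. The share called was 68.8%, beside 52.5% of all tested genes, and with DESeq2 7 rather than 11 were called, where 36.9% of all genes were. MAPK10, which encodes the neuronal JNK3, had the largest decrease at -0.82 (adjusted p = 2.25e-07), followed by RPS6KA5 at -0.69, which encodes the chromatin kinase MSK1. Its close relative RPS6KA4, which encodes MSK2, rose at 0.67, and the RSK genes RPS6KA3 and RPS6KA2 rose at 0.39 and 0.36. MAPK14, which encodes p38 alpha, was slightly lower at -0.22. The call of MAP2K4 (0.33), which encodes a kinase of JNK, was lost with DESeq2 (adjusted p = 0.0794) and without shMETTL14 library 2. Transcript levels of kinases do not measure their activity. Among the genes named from the lists with their values, ATF7, MAFG, NAB2, ELK4, MRTFA, MEF2A, MAPK10, RPS6KA2, RPS6KA5, CCND1, LOX and DNAJB1 share exon bases with another coding gene, so their counts are less certain.

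Genes named in textbooks as AP-1 targets were measured next. Of 18, 9 could be tested, with 4 higher, 1 lower and a median of 0.03, and the matrix metalloproteinases MMP1, MMP3, MMP9, MMP10 and MMP13 were among those too weakly expressed to test. HBEGF, a ligand of the EGF receptor, rose from 27 and 44 counts to 87 and 74, at 1.19 (adjusted p = 0.000605). PLAUR, the urokinase receptor, rose at 0.87, HMOX1, the heme-degrading enzyme, at 0.49 and TIMP1, an inhibitor of metalloproteinases, at 0.32. CD44, a hyaluronan receptor, was slightly lower at -0.15, a call lost without shMETTL14 library 1, and the cyclin D1 gene CCND1 did not pass the test (-0.05, adjusted p = 0.308). Against 52.5% of all tested genes, 55.6% of the tested members of this list were called.

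Other groups of genes are given as values beside these results, against 27.2% of all tested genes called higher and 25.3% called lower. Of 10 noradrenergic markers, 8 were lower and 2 higher (MYCN at 0.28 and ISL1 at 0.28), with DBH (-0.79) and CHGA (-0.53) among those that fell, while their summed level ran from 5560 to 5689 CPM in shNC and from 5542 to 5594 CPM in shMETTL14 libraries. MYCN made up 46.3% and 46.7% of this sum in shNC and 56.9% and 57.1% in shMETTL14 libraries, and the other 9 markers summed to 3052 and 2964 CPM against 2389 and 2401 CPM. Of 12 mesenchymal markers, 11 were tested, with 2 higher (LOX at 1.31 and FN1 at 0.46) and 6 lower, among them COL3A1 (-0.79), SNAI2 (-0.56), COL1A1 (-0.48) and CD44. YAP1, also among the 6 lower, had 16 and 10 counts in shNC and 6 and 0 in shMETTL14 libraries. It passed the filter on low counts through the shNC libraries, so its values are a description. The summed level of the mesenchymal markers ran from 2787 to 2840 CPM in shNC and from 2825 to 2886 CPM in shMETTL14 libraries, and PRRX1 was near 0. VIM, which was not called, made up between 68.2% and 69.5% of this sum, and the other 10 tested markers summed to 887.7 and 865.2 CPM in shNC and 865.9 and 885.4 CPM in shMETTL14 libraries. Of 8 heat shock genes, 7 were tested and 6 were higher, with summed levels of 3298 to 3323 CPM in shNC and 3672 to 3686 CPM in shMETTL14 libraries. HSPH1 (0.49) and DNAJB1 (0.34) were among them, as were HSPA1A (0.79) and HSPA1B (0.83), near-identical copies whose reads may be split. The part of cell state or handling in the changes of the 10 members was not tested.

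The genes most like FOSL1, the member with the largest change, were sought among 11611 genes by the Euclidean distance between log2 CPM values centred over the 4 libraries. The nearest were MARCHF4, with 293 and 243 against 667 and 693 counts (distance 0.0585, log2 fold change 1.35), PCDH7, with 207 and 182 against 519 and 522 counts (0.0913, 1.43), and SCRT1, with 171 and 137 against 378 and 371 counts (0.111, 1.29). In each of them, as in FOSL1, shNC library 1 was above shNC library 2 and both lay far below the shMETTL14 libraries. The genes were chosen by these same values, so this shared order is in part set by the choice. A likeness over 4 libraries in 2 groups is mostly a likeness of the difference between groups.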

How the data were processed

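Total RNA of SK-N-BE(2) cells was sequenced as paired ends in 2 shNC and 2 shMETTL14 libraries. The values deposited by the authors are unnormalized counts of reads for each Ensembl gene ID. The submitters' processing notes name HISAT2 2.1.0, StringTie 1.3.6, HTSeq 0.13.5 and edgeR with build GRCh38 (hg38). Their parameters, the annotation release and the strand setting are not given in the sources used here, so reads where opposite strands both carry a gene may not be told apart. The 5 lines that name no gene held between 19.1% and 19.9% of counts and were left out, and 0 sample columns were left unmapped.

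Group was the sole term of a quasi-likelihood F-test on the counts (edgeR 4.0.16, R 4.3.3), with TMM scaling and the default filterByExpr (minimum count 10, minimum total 15). Benjamini-Hochberg adjustment ran over all 16309 genes that passed this filter, and calls were made under 0.05. CPM and RPKM were computed from the counts with TMM library sizes, RPKM with union exon lengths of GENCODE 29 and family sums from RPKM. Summed levels were compared by an exact permutation test (scipy 1.17.1). The SE given with an edgeR log2 fold change was derived from that change and its F statistic. Intervals are 95% and reflect read counting and variation among the 4 libraries alone. Mean chi-square per gene between libraries of a group was 2.78 in shNC and 2.27 in shMETTL14, so replicates differed by more than sampling noise. That spread may be technical and does not show separate cultures. The libraries of a group were counted as 2.

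The alternatives were DESeq2 1.42.0, other scalings and filters, a replicate block and leaving out each library. The members, the gene lists and the sequence words were chosen with earlier results of these data known. Named were the 10 members, METTL14, and from each list up to 4 called genes per direction with the largest changes and a mean log2 CPM of 0 or more. The 3 genes nearest to the member with the largest change were named too, where mean log2 CPM was 2 or more. EGR4, CCND1, VIM, YAP1, HAND2, GATA3, TH, untested genes and overlapping genes were named after their values were seen. Some genes that the rule names are not reported here.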

Additional observations from a re-analysis of the deposited data

How the results depend on the processing

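The 8 calls among the members were made under RLE scaling, library size alone, both other filters, DESeq2 and the replicate block, and FOSL2 was added under upper quartile scaling, at -0.182 (adjusted p 0.0271). JUN was called in no setting; its sign changed at -0.052 (upper quartile), -0.030 (library size alone) and -0.0026 (10 counts required in every library). Upper quartile scaling moved the median of all genes by -0.0676, and 3550 of 8511 genes were then called higher, 41.7%, where TMM gave 51.8%. With 1 library left out, FOS ran from -0.83 to -0.82, FOSB from -0.36 to -0.27, JUNB from -0.45 to -0.28, JUND from 0.36 to 0.65, FOSL1 from 1.28 to 1.52, EGR1 from -0.27 to -0.19, IER2 from -0.51 to -0.46 and EGR3 from -0.26 to -0.16. The last was the 1 member call lost, without shMETTL14 library 1; the lone library of a group was then assumed to vary like the other group. The log2 ratio of summed FOS family levels, -0.719, was -0.723 with RLE, -0.787 with the upper quartile, -0.764 for library size alone and -0.670 without exon length, and ran from -0.719 to -0.710 with 1 library left out. That of the JUN family, -0.0948, was -0.162 for the upper quartile and -0.140 for library size alone, and ran from -0.122 to -0.0675 with 1 library left out. For these shifts other than the scaling itself the cause was not tested.

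The labels do not say whether libraries with the same replicate number belong together. Deviations of libraries with the same number had a correlation of -0.0018 across genes, which cannot show whether they shared a batch. With the number as a replicate block, 8926 genes were called instead of 8561, and no call among the members changed. Of the 55 other genes that the naming rule chose, 5 lost their call in some setting, in 13 fits in all, and 0 changed sign. FOSL1, WT1, BATF3, DUSP2 and HBEGF rest on few counts, which limits how precisely their changes are known; WT1 ran from 2.43 to 3.36 with 1 library left out.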
